A study of Mus musculus with 12 samples.

Results

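The 7 entries described here are the mature mouse miRNAs mmu-miR-99a, mmu-miR-99b, mmu-miR-100, mmu-miR-125a-5p, mmu-miR-125b-5p, mmu-miR-10a and mmu-miR-10b (the prefix is left out from here on), taken by their names from the 650 entries of an Agilent miRNA array, of which 611 are mouse miRNAs. They were measured in liver RNA of adult mice that ate and drank freely under equal spans of light and dark, 12 h each. Collection ran at 4-h steps from ZT18 up to ZT62, where ZT (zeitgeber time) counts hours from a lights-on. RNA of 2 livers was mixed for each time and put on 1 one-colour array, which gave 12 arrays: 6 from the dark (14, 18 and 22 h after lights on) and 6 from the light (2, 6 and 10 h after lights on). Each of the 6 clock times was thus sampled on 2 arrays a day apart, the later called cycle 2 (ZT42 to ZT62) and the earlier cycle 1 (ZT18 to ZT38). The groups share the same tissue and housing and carry no named mutation or drug, and the labels give neither strain nor sex. The pools hide the spread between mice, so p-values measure the spread between pools together with labelling and hybridisation.

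A miRNA guides a silencing complex to messenger RNAs, mostly through its seed, bases 2 to 8 from the 5′ end, so miRNAs with a shared seed form a family. miR-125 is the vertebrate counterpart of lin-4, the developmental timing miRNA of Caenorhabditis elegans, and its genes lie in clusters with let-7 and a miR-99 or miR-100 gene. miR-99 and miR-100 have been reported to repress the growth kinase mTOR, and the miR-10 genes lie inside Hox clusters, the body-axis regulators, some of which they target. In bulk liver a lower signal may come from fewer cells of a type or from less RNA in each cell, and these cannot be told apart.

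The mature sequences, shown because seeds and near-identity decide which members can be read as separate, fall into 3 seed groups. All 7 names were matched in RefSeq (build GRCm38.p6), the unstarred arm being the 5p arm, and the seed is in capitals.
miR-99a: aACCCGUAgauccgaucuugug
miR-100: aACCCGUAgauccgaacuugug
miR-99b: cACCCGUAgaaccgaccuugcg
miR-125a-5p: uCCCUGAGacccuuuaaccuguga
miR-125b-5p: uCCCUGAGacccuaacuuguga
miR-10a: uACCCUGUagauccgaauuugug
miR-10b: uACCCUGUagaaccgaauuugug
miR-99a and miR-100 differ by U16A and miR-10a and miR-10b by U12A, with positions counted from 1 at the 5′ end and the letter of the one named first given first. miR-125a-5p and miR-125b-5p share their opening 13 bases. miR-100 and miR-10a, which have different seeds, share an 11-base run that starts at base 6 of miR-100 and at base 7 of miR-10a. Signals of such close relatives may include cross-hybridisation, which was not tested.

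The genes lie in 3 let-7 clusters and 2 Hox clusters. On chromosome 16, miR-99a (chr16:77598940-77598961, plus strand) and a copy of miR-125b-5p (chr16:77646279-77646300, plus strand) flank Mirlet7c-1. On chromosome 9, miR-100 (chr9:41531437-41531458, plus strand) and the other copy of miR-125b-5p (chr9:41581940-41581961, plus strand) lie on either side of Mirlet7a-2, inside the long non-coding gene Mir100hg. On chromosome 17, miR-99b (chr17:17830194-17830215, plus strand), Mirlet7e and miR-125a-5p (chr17:17830817-17830840, plus strand) lie within the span of Spaca6. miR-10a (chr11:96317186-96317208, plus strand) lies within the annotated span of Hoxb3, and miR-10b (chr2:74726074-74726096, plus strand) within those of Hoxd3 and Hoxd4. The gene table gives spans only, so exon or intron is not stated. Mature miR-125b-5p, let-7a and let-7c come from more than 1 gene, and an array reads their sum.

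Of the 7 members, 5 gave a signal above the floor. miR-99a, miR-100, miR-125a-5p, miR-125b-5p and miR-10a were called detected by the scanner software on all 12 arrays and entered the tests, which covered the 139 entries detected on at least 6 arrays. miR-99b was called detected on 4 arrays and miR-10b on 1, and both lay at or below the floor of 21.9 intensity units on every array. The scaled intensity of miR-99b was 10.6 at the lowest, 13.6 at the median and 17.4 at the highest of the 12 arrays, and at most 2 of its 10 spots on an array stood well above background. miR-10b measured 8.77, 10.4 and 17.5 in the same order, again with at most 2 spots well above background. These intensities are not read as a level or a change of the 2 members, although miR-10b differs from the readily detected miR-10a at a single base and miR-99b shares the seed of miR-99a. Levels of different members are not set against each other, since probes differ in response.

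The tissue bore the marks of liver. The 4 hepatocyte miRNAs (miR-122, miR-192, miR-194 and miR-148a) and both arms of the endothelial miR-126 were detected on all 12 arrays, while the neuronal miR-124, miR-9 and miR-128 were detected on 0. Of the leukocyte list 3 of 5 miRNAs and of the red cell list 2 of 3 were detected on all 12 arrays. Each array had 132 to 162 detected entries, and 16.5% to 19.6% of spots stood well above background.

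**Figure D1:**
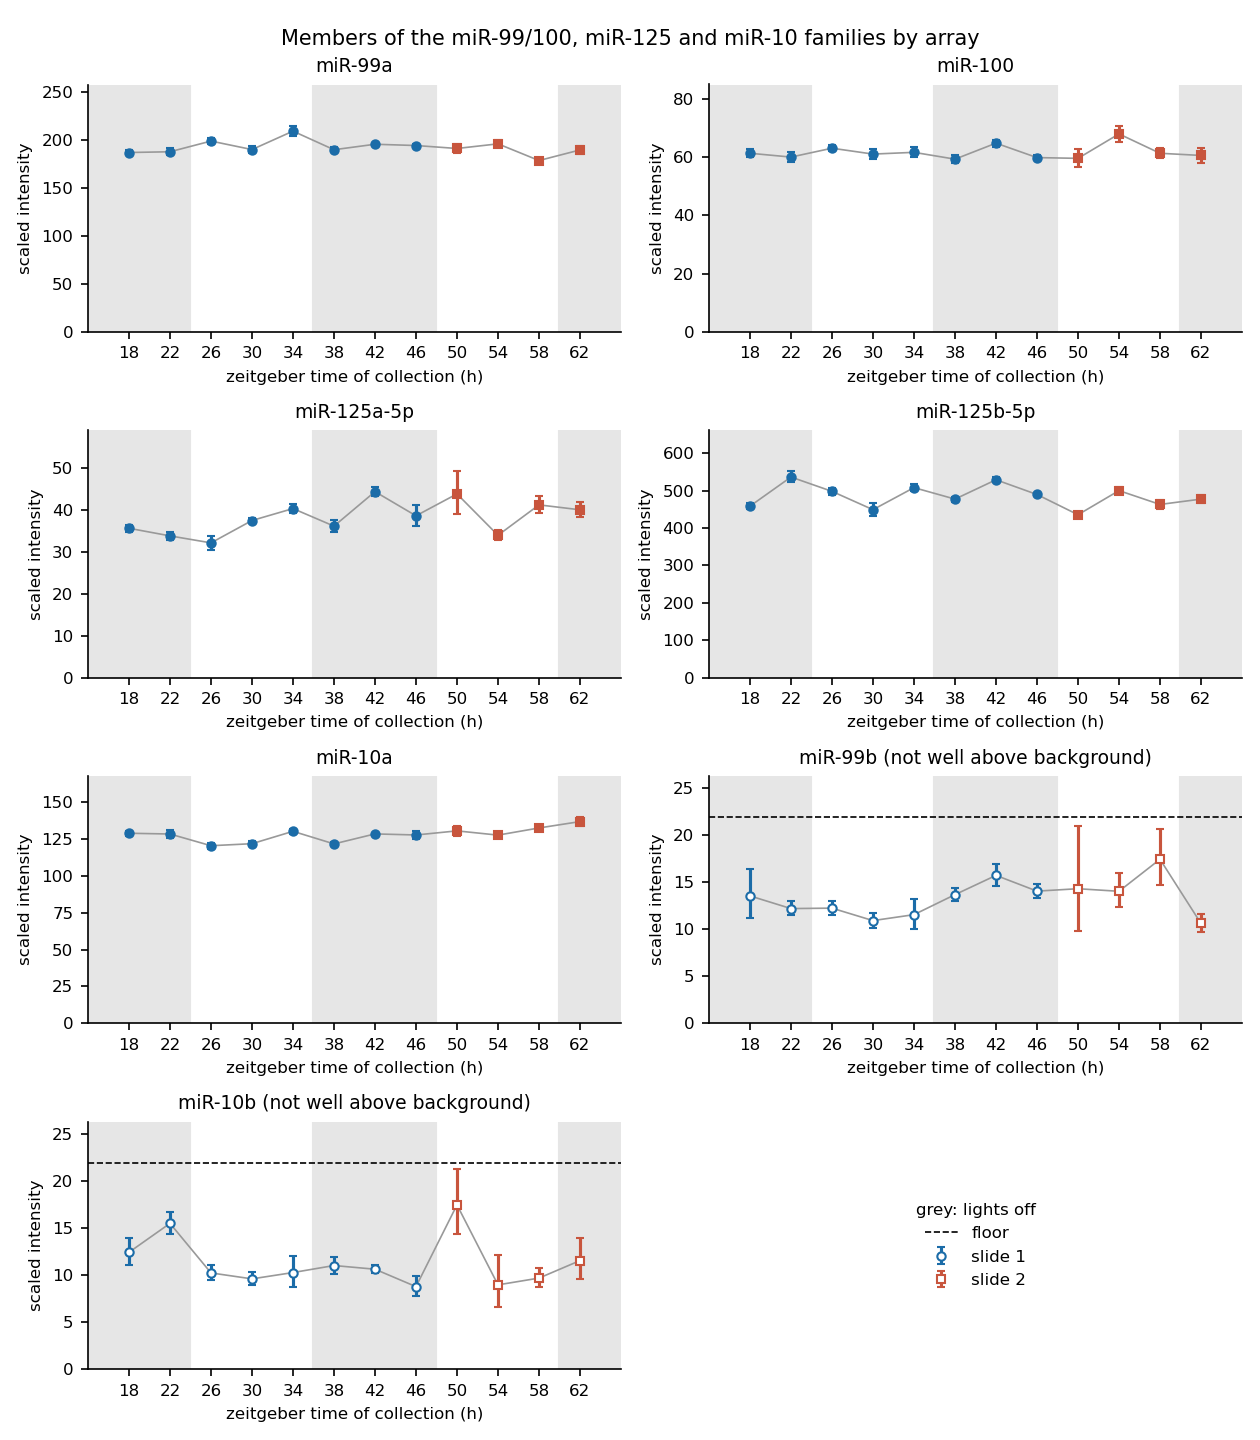
Scaled intensity (linear axis from 0) of the 7 members on each array against the time of collection, with bars of 1 standard error over the spots of the array, grey for lights off, and colours for the slides. The members with filled symbols stay within a narrow band, and miR-99b and miR-10b (open symbols) lie under the dashed floor of 21.9 on every array.

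The miR-99/100 family is described before the others. miR-99a varied little over the 2 days. Its intensity was 187 at the lowest, 189.6 at the median and 195 at the highest of the dark arrays, against 178, 193 and 209 on the light arrays. Both extremes came from the light at the same clock time, 10 h after lights on: 178 at ZT58 in cycle 2 and 209 at ZT34 in cycle 1. All 6 dark arrays lay within the light range. At the clock times 2, 6, 14, 18 and 22 h the cycle 2 arrays measured 191, 196, 189.5, 195 and 194, against 199, 189.9, 189.8, 187 and 188 in cycle 1. Its highest array was 1.17 times its lowest.

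miR-100 was as steady. It measured 59.2 at the lowest, 60.2 at the median and 64.7 at the highest of the dark arrays, against 59.5, 61.4 and 67.9 on the light arrays, and 5 of the 6 dark arrays lay within the light range. The high values were 67.9 at ZT54, 6 h after lights on in cycle 2, and 64.7 at ZT42, whereas the arrays a day earlier measured 61.0 and 61.3. Among the tested members, only miR-100 and miR-125a-5p had a second probe that stood above background on few arrays (over 5 of its 10 spots well above background on 0 and 1 arrays). The value of every member comes from 1 probe, and for miR-100 and miR-125a-5p no second probe could be set beside it.

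Of the miR-125 family, miR-125b-5p was brightest at night on some arrays but not on all. Its intensity was 459 at the lowest, 484 at the median and 536 at the highest of the dark arrays, against 436, 481 and 508 on the light arrays. The dark arrays ZT22 (536) and ZT42 (529) exceeded every light array, but their partners a day apart, ZT46 (489.7) and ZT18 (459), did not. At 2, 6, 10 and 14 h after lights on it measured 436, 500.1, 463 and 477 in cycle 2, against 498, 449, 508 and 477 in cycle 1. On the ZT22 array the mesenchymal and bile duct markers were high as well. The 5 mesenchymal markers and the 3 bile duct markers detected on any array (of 6 and 5 listed) were all highest there, with summed intensities of 351 and 165 against 291 and 137 on the next array and lowest sums of 239 and 109.6, the last being the floor of its 5 entries added up. miR-145 of the mesenchymal and miR-200c and miR-141 of the bile duct list were detected on 0 arrays. The endothelial, leukocyte and red cell markers were highest on arrays other than ZT22, and of the hepatocyte list only miR-194 was highest on it. The mesenchymal sum ran from 239 to 351 on the dark arrays, against 243 to 276 on the light arrays, and the bile duct sum from 109.6 to 165, against 109.6 to 119. The part of these cells in the level of miR-125b-5p was not tested.

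miR-125a-5p spread the most of the 5 tested members. It measured 33.9, 37.4 and 44.4 on the dark arrays (lowest, median, highest), against 32.2, 39.0 and 43.9 on the light arrays. From 2 to 22 h after lights on its cycle 2 arrays measured 43.9, 34.004, 41.3, 40.1, 44.4 and 38.7, against 32.2, 37.5, 40.4, 36.2, 35.7 and 33.9 in cycle 1. Cycle 2 was higher at 5 of the 6 clock times, with 6 h as the exception. On the ZT50 array, which gave 43.9, only 5 of its 10 spots stood well above background, against 8 to 10 on the other arrays. The 3 red cell miRNAs, miR-451, miR-144 and miR-486, were all highest on ZT50. So were the leukocyte miR-142-3p and miR-142-5p, and miR-125b* (26.98) and miR-125b-3p (24.2), which were detected on 0 arrays. The leukocyte miR-223 and the other arms miR-125a-3p and miR-10b* were highest on other arrays. The median deposited intensity was also highest on ZT50, at 4.12. The part of red cells, or of a raised signal of dim entries on ZT50, in the level of miR-125a-5p was not tested.

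miR-10a, the detected Hox-cluster member, moved within a similarly narrow band as miR-99a. It measured 122 at the lowest, 128 at the median and 137 at the highest of the dark arrays, against 120.4, 129 and 132 on the light arrays. From 2 to 22 h after lights on its cycle 2 arrays measured 130.4, 128, 132, 137, 128 and 128, against 120.4, 122, 130.1, 122, 129 and 128 in cycle 1. At 18 and 22 h the arrays a day apart differed by 1.00-fold and 1.01-fold, while at 14 h they differed by 1.12-fold.

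The spots of an array give the part of the error that arises within it, which leaves out labelling and hybridisation. Each value is a mean over 7 to 10 spots of 1 probe. The standard error that the spots of an array allow was 0.03 log2 units for miR-99a, 0.04 for miR-100, 0.07 for miR-125a-5p, 0.03 for miR-125b-5p and 0.02 for miR-10a (root mean square over arrays). The SD over the 12 arrays was 0.06, 0.06, 0.15, 0.09 and 0.05 log2 units in the same order. The SD over arrays holds the differences between pools together with those between hybridisations, and the 2 measures were not tested against each other. Among the 109 tested entries never at the floor the median SD was 0.10. Of these entries 11.01% had a smaller SD than miR-99a, 11.9% than miR-100, 10.1% than miR-10a, 45.9% than miR-125b-5p and 71.6% than miR-125a-5p. These ranks are not matched for intensity. Among entries within 2-fold of the member's mean intensity, the median SD was 0.095 for miR-99a, 0.147 for miR-100 and 0.102 for miR-10a. It was 0.144 for miR-125a-5p, close to its own SD, and 0.0715 for miR-125b-5p, below its own.

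**Figure D2:**
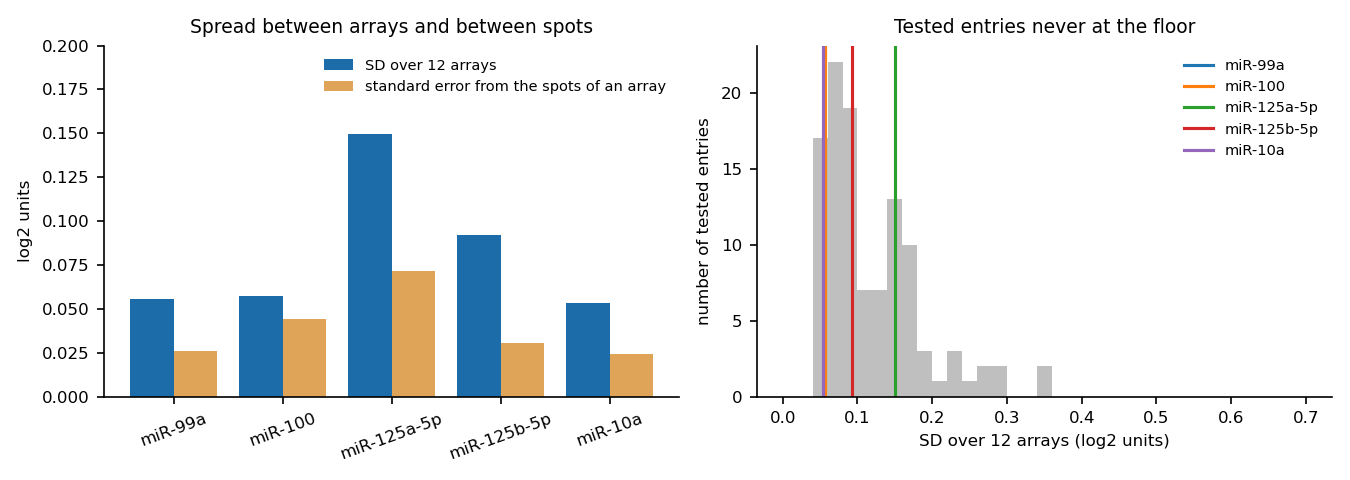
Left, bars from 0 give the SD over 12 arrays and the standard error from the spots of an array for the 5 tested members (log2 units). Right, the histogram gives the same SD for the 109 tested entries never at the floor, with lines for the members; miR-99a, miR-100 and miR-10a lie at the low end and miR-125a-5p lies above the median of 0.10.

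For 3 members a second probe, detected on at least 11 arrays, gave another reading. For miR-99a the 2 probes followed each other over the 12 arrays with Pearson's r of 0.71 and Spearman's rho of 0.83 (permutation test, 100000 draws, two-sided, adjusted over 3 probe pairs, p = 0.0220 and 0.00274). For miR-10a r was 0.62 and rho 0.83 (permutation test, adjusted p = 0.0435 and 0.00274). For miR-125b-5p r was 0.44 and rho 0.34 (permutation test, adjusted p = 0.148 and 0.286), so the time course of miR-125b-5p described above was not shown to hold for its second probe. Without the 2 arrays farthest from the median r was 0.87, 0.60 and 0.45 in the same order, and on slide 1 alone, with 8 arrays, it was 0.80, 0.82 and 0.68. Both probes share the array's labelling and scaling.

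The series asked whether miRNAs follow the daily cycle. No tested member passed for a rhythm of 24 h, and with the scaling used the fitted folds were at most 1.09. The fitted peak-to-trough fold was 1.02 for miR-99a (upper 95% limit 1.13), 1.03 for miR-100 (1.145), 1.04 for miR-10a (1.14), 1.06 for miR-125b-5p (1.23) and 1.09 for miR-125a-5p (1.39). The median upper limit over the 109 entries never at the floor was 1.25. By limma's F test on cosine and sine terms, 0 of the 5 members had an adjusted p under 0.05, against 0% of the 139 entries tested, and 0 had an unadjusted p under 0.05, against 3.6% of all entries. The smallest adjusted p of a member was 0.944, for miR-10a. These folds and limits hold only for the background correction and scaling used. With all-probe scaling the fitted folds were 1.315, 1.303, 1.38, 1.411 and 1.359 for miR-99a, miR-100, miR-10a, miR-125b-5p and miR-125a-5p. With normexp background correction the folds in the same order were 1.33, 1.602, 1.405, 1.051 and 1.725. The normexp setting added an offset of 50 and had no common floor, so it changed more than the background. Several of these exceed the limits above, and none passed the test.

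Dark and light livers were compared next, in mice that as nocturnal animals feed mostly in the dark. miR-125b-5p averaged 8.95 ± 0.09 log2 units in the dark and 8.89 ± 0.09 in the light (SD, n = 6 each), a fold of 1.04 with a 95% interval of 0.962 to 1.12. miR-10a averaged 7.01 ± 0.05 in the dark and 6.99 ± 0.06 in the light (SD, n = 6 each), a fold of 1.01 (0.962 to 1.06). miR-125a-5p averaged 5.25 ± 0.14 in the dark and 5.25 ± 0.17 in the light (SD, n = 6 each), a fold of 1.00 (0.875 to 1.14). miR-99a averaged 7.57 ± 0.03 in the dark and 7.60 ± 0.08 in the light (SD, n = 6 each), a fold of 0.984 (0.936 to 1.03). miR-100 averaged 5.93 ± 0.05 in the dark and 5.96 ± 0.07 in the light (SD, n = 6 each), a fold of 0.977 (0.926 to 1.03).

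None of these differences exceeded the spread between arrays, and the groups overlapped for every tested member. In limma 0 of the 5 members had an adjusted p under 0.05, against 0% of the 139 entries, and 0 had an unadjusted p under 0.05, against 7.91% of all entries. The smallest adjusted p of a member was 0.741, shared by miR-125b-5p and miR-100, and an exact permutation test over all splits of 6 against 6 arrays gave p = 0.303 and 0.357 for them (two-sided, unadjusted). The median difference of the members was 0.00 log2 units, and that of all entries was -0.02. The signs were not stable: with normexp the difference was -0.416 log2 units for miR-125a-5p and -0.249 for miR-10a, and with all-probe scaling it was 0.406 for miR-99a and 0.396 for miR-100, while the median of all entries became -0.36 and 0.38. The dark-light difference did not differ detectably between the cycles for any tested member in limma, the smallest unadjusted p being 0.0795, for miR-99a (adjusted p = 0.944).

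**Figure D3:**
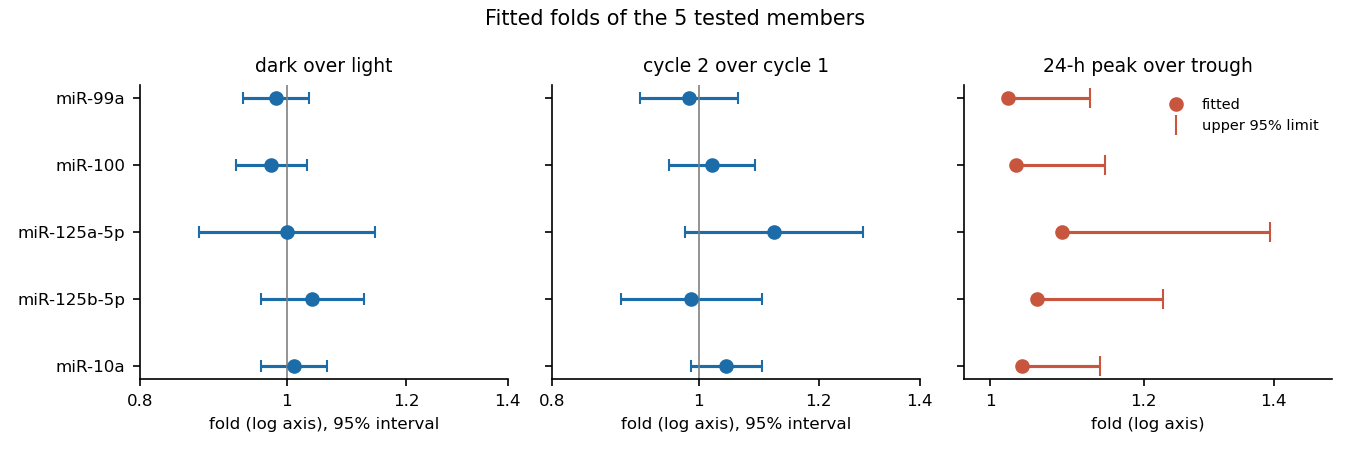
Fitted folds of the 5 tested members on log axes: dark over light (left) and cycle 2 over cycle 1 (middle) with 95% intervals, and the 24-h peak over trough with its upper 95% limit (right). Every interval of the left and middle panels spans 1, and the largest upper limit on the right is 1.39, for miR-125a-5p.

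With the shape of the daily profile left free, the clock-time means spanned 1.03-fold for miR-99a, 1.05-fold for miR-10a, 1.07-fold for miR-100, 1.10-fold for miR-125b-5p and 1.14-fold for miR-125a-5p. The clock times were not ordered alike: the highest mean fell at 2 h for miR-99a, at 6 h for miR-100, at 10 h for miR-125a-5p and miR-10a and at 22 h for miR-125b-5p. With the clock times put in order of level, the largest gap between neighbours was 0.01 log2 units for miR-99a, 0.04 for miR-100, 0.06 for miR-125a-5p, 0.06 for miR-125b-5p and 0.03 for miR-10a. Each gap was smaller than the SD between the arrays of a clock time, which was 0.07, 0.06, 0.18, 0.11 and 0.06 in the same order. With limma's F test across the 6 times of day, 0 of the 5 members passed, against 0% of the 139 entries, and 0 had an unadjusted p under 0.05, against 3.6% of all entries. The smallest adjusted p of a member was 0.861, for miR-100. The spans also depended on the processing, without any member passing: for miR-99a, miR-10a, miR-100, miR-125b-5p and miR-125a-5p they were 1.566, 1.738, 2.173, 1.158 and 2.423 with normexp and 1.617, 1.689, 1.614, 1.816 and 1.526 with all-probe scaling.

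Between the cycles the largest difference among the members was that of miR-125a-5p. Its mean was 5.33 ± 0.14 log2 units over the 6 cycle 2 arrays, against 5.17 ± 0.11 over the 6 of cycle 1 (SD), or 1.12-fold (95% interval 0.979 to 1.28). The difference of 0.165 log2 units became 0.0803 to 0.227 when 1 array was left out. It was 0.0803 without ZT50 and 0.109 without ZT26, the other array at 2 h. Leaving out either array takes that pair out of the difference, so their parts cannot be told apart. The mean of miR-10a was 7.03 ± 0.04 over cycle 2, against 6.97 ± 0.05 over cycle 1 (SD, n = 6 arrays each), or 1.04-fold (0.987 to 1.10), and cycle 2 was higher in 4 of 6 pairs. The folds of miR-100, miR-125b-5p and miR-99a were 1.02, 0.989 and 0.985. In limma 0 of the 5 members passed, against 0% of the 139 entries, and 0 had an unadjusted p under 0.05, against 3.6% of all entries, the smallest adjusted p being 0.865. Slide 2 held only cycle 2 arrays (4 of 6), those at 2, 6, 10 and 14 h after lights on. With the slide as a block the difference therefore rests on the pairs at 18 and 22 h alone. It became 0.25 log2 units for miR-125a-5p and -0.0062 for miR-10a, neither past the threshold in limma. With all-probe scaling the difference was -0.327 for miR-125a-5p and -0.473 for miR-10a, again not past it. The median difference of all entries was -0.50 with all-probe scaling, against 0.02 with the scaling used.

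Members of a gene cluster can be made from a shared transcript, so their arrays were compared pair by pair, 10 pairs of members and 5 pairs of a member with its let-7 partner. The partner let-7a measured 2538 at the lowest and 2813 at the highest array, let-7c 1337 and 1555, and let-7e 83.3 and 118. miR-125a-5p and let-7e of chromosome 17 had r = 0.69 and rho = 0.63 (permutation test over 12 arrays, two-sided, p = 0.0147 and 0.0320, adjusted over 15 pairs 0.110 and 0.120). Both were lowest on the ZT26 array and highest on ZT42. miR-99a and let-7c of chromosome 16 had r = 0.65 but rho = 0.40 (permutation p = 0.0220 and 0.201, adjusted 0.110 and 0.377), and both were highest on ZT34. miR-125b-5p and let-7c had r = 0.67 and rho = 0.72 (permutation p = 0.0175 and 0.0108, adjusted 0.110 and 0.118), and miR-125b-5p and let-7a had r = 0.55 and rho = 0.66 (adjusted permutation p = 0.196 and 0.118). miR-100 and let-7a of chromosome 9 had r = 0.21 and rho = 0.15 (adjusted permutation p = 0.726 and 0.815).

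None of the 15 pairs passed after adjustment, and 3 had an unadjusted permutation p of r under 0.05. Among all 5886 pairs of entries never at the floor the median r was 0.18, and 5.71%, 6.78% and 7.76% of these pairs had a higher r than miR-125a-5p with let-7e, miR-125b-5p with let-7c and miR-99a with let-7c. Without the 2 arrays farthest from the member's median r was 0.44, 0.78 and 0.45 for these 3 pairs, so the relations of miR-125a-5p with let-7e and of miR-99a with let-7c rest in part on those arrays. On slide 1 alone r was 0.87, 0.65 and 0.69. Without the ZT50 array 2 pairs passed: miR-125a-5p with let-7e (r = 0.87, adjusted permutation p = 0.00825) and miR-99a with let-7c (r = 0.78, adjusted permutation p = 0.0361). The r of the other let-7 pairs fell in that run. It was 0.48 for miR-125b-5p with let-7c (adjusted permutation p = 0.347), 0.29 for miR-125b-5p with let-7a and -0.05 for miR-100 with let-7a. In the other 11 runs that left out 1 array, 0 pairs passed. The share of all pairs of entries that would pass without ZT50 was not computed.

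Pairs within a seed family did not pass either. miR-99a and miR-100, 1 base apart, had r = 0.32 and rho = 0.45 (adjusted permutation p = 0.537 and 0.377), and without ZT34 and ZT58 r was 0.63. miR-125a-5p and miR-125b-5p had r = -0.24 and rho = -0.22 (adjusted permutation p = 0.726 and 0.664), and r was -0.56 without ZT26 and ZT42 and 0.19 on slide 1. miR-125b-5p had r = 0.43 with miR-99a and 0.39 with miR-100, its partners on chromosomes 16 and 9 (adjusted permutation p = 0.418 and 0.467). Over the 10 pairs of members r lay between -0.24 and 0.56 with a median of -0.04. All pairs share the arrays and their scaling, and the counts depended on it: all-probe scaling brought 15 of the 15 pairs past the threshold, and leaving the arrays unscaled brought 12. With normexp 7 pairs passed, and r turned negative for miR-99a with let-7c (-0.854) and for miR-125b-5p with let-7c (-0.344). The share of all pairs of entries that would pass under these settings was not computed. The counts therefore cannot be read as particular to the members or their clusters.

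**Figure D4:**
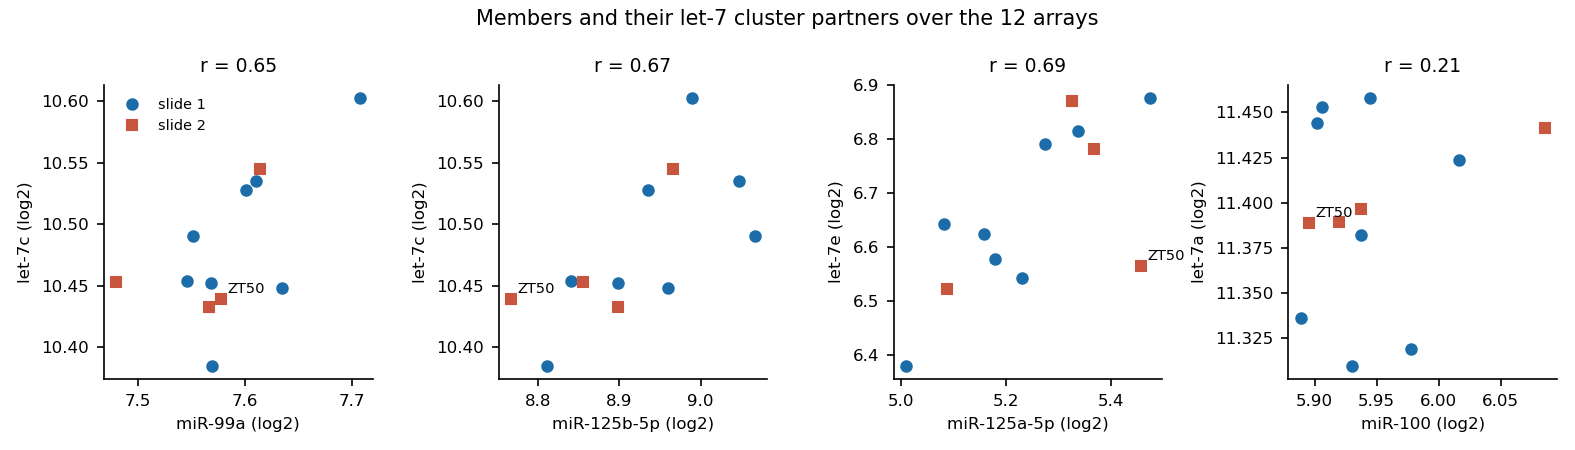
Each point is 1 of 12 arrays, with the member on the horizontal and its let-7 cluster partner on the vertical axis (log2 units), circles for slide 1 and squares for slide 2. The r above each panel is 0.65, 0.67, 0.69 and 0.21, and on ZT50 miR-125a-5p is high (43.9 intensity units) while let-7e is not (94.7).

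The 2 entries most like each member over the 12 arrays included no other member. By Pearson's r, they were miR-680 (0.68) and let-7c (0.65) for miR-99a, miR-680 lying at the floor on 10 arrays, with 0.82 and 0.69 on slide 1. For miR-100 they were miR-425 (0.82) and miR-7a (0.71), with 0.50 and 0.52 on slide 1. miR-125a-5p was most like miR-652 (0.85) and miR-500 (0.81), with 0.77 and 0.88 on slide 1. miR-125b-5p was most like miR-103 (0.81) and miR-195 (0.69), with 0.88 and 0.53 on slide 1. For miR-10a they were let-7e (0.73) and miR-361 (0.71), with 0.81 and 0.73 on slide 1. These values are the highest among the tested entries outside the members and so are a description only.

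The other arms and the Hox-cluster and seed relatives of the members were mostly not detected. The array held 6 of the other arms of the members' hairpins. Of these miR-125b*, miR-125b-3p, miR-10a* and miR-10b* were detected on 0 arrays and miR-125a-3p on 2. The exception was miR-99b*, called detected on 11 arrays although miR-99b itself was detected on 4. Its intensity ran from 12.4 at ZT34 to 74.3 at ZT46, but at most 5 of its 10 spots on an array stood well above background, and it passed none of the 4 tests (smallest adjusted p 0.865 in limma). The other listed miRNAs of Hox clusters on the array, miR-196a, miR-196a*, miR-196b, miR-615-3p and miR-615-5p, were detected on 0 arrays. miR-351, which has the miR-125 seed, was also detected on 0 arrays.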

How the data were processed

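The authors' deposited values are spot intensities of one-colour (Cy3) Agilent arrays on a linear scale, background-subtracted and detrended by Agilent Feature Extraction (10.7.3.1 per the file headers, 9.5.3.1 per the submitters' processing notes). The deposited intensities were not scaled between arrays. The value table held the same intensities (largest difference 0, column medians 0.661 to 4.12). Control and outlier spots were left out, the remaining spots of a probe averaged, and arrays scaled to the 75th percentile of the 157 probes detected on all 12 arrays (factors 0.867 to 1.10). A floor of 21.9 was set before log2, and each entry took its brightest probe. Slides come from the array barcodes. Tests used limma 3.58.1 in R 4.3.3 with an intensity-dependent variance and Benjamini-Hochberg adjustment over 139 entries. They were also run on simulated data with noise independent between entries, and the shares of changes recovered are not given here. Correlations used 100000 permutations. Members and lists were chosen with earlier results of these data known. Genes named are the members, their other arms, cluster partners, Hox-cluster and same-seed miRNAs, cell type markers and the 2 entries most like each member. Alternatives covered background, scaling, filter, floor, probe summary, slide and single arrays.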

Additional observations from a re-analysis of the deposited data

How the results depend on the processing

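No alternative brought any of the 5 tested members past an adjusted p of 0.05 in the 4 tests, and neither did permuting the time labels for the 24-h rhythm. The planned normexp correction on mean spot signals was not run because the files used hold median spot signals. Those were used instead, with an offset of 50 and no common floor, an alternative chosen after seeing the data. The setting with no filter covered the mouse entries that varied, since the others lay at the floor on all arrays. The labels give no replicate numbers. Arrays of a clock time are paired by it, and the fit of cycle 2 minus cycle 1 holds clock time as a term, so it is a paired fit. The number of pairs past the threshold, 0 of 15, became 7 with normexp, 15 with all-probe scaling, 12 without scaling and 1 with the mean of all probes of an entry. It lay between 0 and 2 when 1 array was left out, with 2 without ZT50. The share of all pairs of entries past the threshold was not computed for any of these settings. The median dark minus light difference of all entries, -0.02 log2 units, became -0.36 with normexp and 0.38 with all-probe scaling, and the median cycle 2 minus cycle 1 difference, 0.02, became 0.36 and -0.50. Signal over background limits miR-99b, miR-10b and, on ZT50, miR-125a-5p.

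The values below changed sign, and the cause was not tested. Among them, only 1 was past the threshold, the r of miR-125a-5p with miR-125b-5p under all-probe scaling (adjusted permutation p = 2e-05). Dark minus light (log2) became -0.416 for miR-125a-5p and -0.249 for miR-10a with normexp, 0.406 for miR-99a and 0.396 for miR-100 with all-probe scaling, and 0.0374 for miR-99a and 0.0274 for miR-100 without scaling. Leaving out 1 array gave -0.0473 to 0.0453 for miR-125a-5p and -0.00421 to 0.0326 for miR-10a. Cycle 2 minus cycle 1 of miR-100 became -0.505 with all-probe scaling, -0.0384 after quantile normalization, -0.0166 unscaled and -0.0152 with the software's total gene signal. That of miR-125a-5p became -0.327 with all-probe scaling and -0.200 with the total gene signal. That of miR-10a became -0.473 with all-probe scaling and -0.00623 both with the slide as a block and on slide 1. That of miR-99a became 0.198 with normexp, 6.034e-06 with the mean of all probes and 0.0570 both with the slide block and on slide 1. That of miR-125b-5p became 0.0506 with normexp, 0.0425 with the mean of all probes and 0.0375 both with the slide block and on slide 1. The slide block and slide 1 gave the same cycle differences because both rest on the pairs at 18 and 22 h alone. Leaving out 1 array gave -0.0428 to 0.0199 for miR-99a and -0.0607 to 0.0193 for miR-125b-5p. With normexp r became 0.630 for miR-125a-5p with miR-125b-5p, -0.854 for miR-99a with let-7c, -0.853 for miR-100 with let-7a, -0.330 for miR-125b-5p with let-7a and -0.344 for miR-125b-5p with let-7c. The r of miR-125a-5p with miR-125b-5p became 0.908 with all-probe scaling, 0.292 without scaling and 0.187 on slide 1. That of miR-100 with let-7a became -0.0497 after taking off each array's median deviation, -0.272 after quantile normalization, -0.498 with the total gene signal and -0.0239 on slide 1, and lay between -0.0538 and 0.334 when 1 array was left out. That of miR-100 with miR-125b-5p became -0.0598 with the mean of all probes and -0.394 with the total gene signal, and that of miR-99a with miR-100 became -0.212 with the total gene signal.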
